A study of Mus musculus with 10 samples.

Results

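Chromatin modifier and remodeler genes were followed through the activation and division of mouse splenic B cells. The members are all genes whose symbol begins with Kdm, Kmt2, Kmt5, Hdac, Setd, Smarc, Chd, Dnmt, Brd or Sirt and, but for Hdac, Setd, Smarc and Dnmt, a family number, together with Tet1, Tet2 and Tet3. Rows were summed by symbol, and 50 of 6610 genes in the table matched. All 50 members passed the filter on low values of at least 1 TPM in at least 2 libraries, and 42 had at least 10 TPM in every library. Of 93 reference symbols with such names, 43 were not in the table used here. Family sums and rankings below therefore cover the members alone, not whole families. The name pattern also takes in genes whose best known substrate is not chromatin, such as Setd3, which modifies actin, Hdac6, a cytoplasmic tubulin deacetylase, and the mitochondrial sirtuins Sirt3 and Sirt5.

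All libraries came from C57BL/6 mice, an inbred strain, and no genetic change is given in the labels. The group naive holds resting cells that were not activated. The groups div0 and div12 were activated for 48 h by a pulse of antibodies that bind IgM (the surface antigen receptor) and CD40 (which takes signals from helper T cells). They were separated into undivided (div0) and divided (div12) cells. This first culture is Phase I. In Phase II, div12 cells were kept for another 48 h with 0.12 µg/ml of antibody against CD40 and sorted into cells that did not divide again (div12_48_u) and cells that did (div12_48_d), so both Phase II groups share the first activation and division. Each group has 2 libraries. Per the labels, Phase I replicates were independent and each pooled 4 to 5 mice. For Phase II no pooling is given, so p-values measure the spread between these libraries. Ages and sexes are not given in the labels. RNA came from 1000000 cells in Phase I and 500000 cells in Phase II, and phase, time in culture, sorting and cell input cannot be told apart.

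Chromatin modifiers add or remove chemical marks on DNA and histones, and remodelers use ATP to move or evict nucleosomes. DNA methyltransferases place methyl groups on cytosine, chiefly in CpG dinucleotides, and TET enzymes oxidise them. Kmt2 and most Setd proteins methylate histone lysines, Kdm proteins remove those methyl groups, Hdac and Sirt proteins remove acetyl groups, and Brd proteins bind acetylated histones. In B cells, activation is accompanied by broad rearrangement of chromatin, and Dnmt1 copies DNA methylation onto newly made strands each time DNA is replicated.

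Dnmt1 and Dnmt3a had the largest called rises against naive among members at 10 TPM or more, and their transcripts start at several annotated sites. The table holds 3 start windows for each gene, and 4 of the 6 are shown. Those not shown are of the third start of Dnmt1 and the second start of Dnmt3a, where 84 and 120 bases remained once bases in annotated exons were left out. The other windows are from the RefSeq promoter table of GRCm38.p6, 5′ to 3′ along the gene, with CG dinucleotides in capitals. For Dnmt1 the windows before the first start (chr9:20959889-20960138, minus strand) and the second start (chr9:20952980-20953229, minus strand) hold 2 and 7 CG. For Dnmt3a the windows before the first start (chr12:3806730-3806979, plus strand) and the third start (chr12:3891494-3891727, plus strand) hold 38 and 15 CG, and bases that lie in annotated exons were left out of the last one.
Dnmt1 first start: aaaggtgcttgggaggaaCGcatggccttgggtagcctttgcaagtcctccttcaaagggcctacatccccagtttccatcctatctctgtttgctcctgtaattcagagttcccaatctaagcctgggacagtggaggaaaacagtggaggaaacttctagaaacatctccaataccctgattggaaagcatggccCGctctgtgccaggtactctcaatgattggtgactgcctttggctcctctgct
Dnmt1 second start: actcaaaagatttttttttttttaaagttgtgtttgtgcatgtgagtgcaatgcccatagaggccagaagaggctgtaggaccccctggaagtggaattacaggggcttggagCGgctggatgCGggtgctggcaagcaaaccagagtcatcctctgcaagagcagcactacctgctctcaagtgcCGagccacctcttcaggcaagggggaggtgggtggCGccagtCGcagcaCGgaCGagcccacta
Dnmt3a first start: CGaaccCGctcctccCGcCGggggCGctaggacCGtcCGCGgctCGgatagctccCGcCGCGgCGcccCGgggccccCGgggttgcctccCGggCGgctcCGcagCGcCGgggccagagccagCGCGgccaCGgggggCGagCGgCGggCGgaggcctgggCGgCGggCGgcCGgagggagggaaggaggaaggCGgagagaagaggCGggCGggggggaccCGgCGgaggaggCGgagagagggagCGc
Dnmt3a, the third start: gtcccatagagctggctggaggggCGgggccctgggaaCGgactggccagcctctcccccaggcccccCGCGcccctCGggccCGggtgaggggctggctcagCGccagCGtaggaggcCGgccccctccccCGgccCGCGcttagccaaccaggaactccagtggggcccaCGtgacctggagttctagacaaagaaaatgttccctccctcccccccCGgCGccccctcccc
Across the 60 windows of 250 bases that matched 42 of the 50 members, the median was 20 CG and 63.8% G or C, against 6 CG and 52.4% over all 32851 windows. All windows together cover 27025 genes, many of them outside the 4427 genes tested. Members were not compared with windows of the tested genes alone. The letters CCAAT on either strand were in 19 of 60 member windows and in 33.8% of all windows, and TTTCCCGC, TTTGGCGC, TTTCGCGC or TTTGCCGC, forms bound by E2F factors, were in 2 of 60, those of Dnmt1 and Smarcd1, and in 1.86% of all. Neither Dnmt1 window shown holds such a form. The Dnmt1 match is in the window of the third start and not within its 84 bases outside annotated exons. The transcript of that start had a mean of 3.09 TPM in naive and at most 6.05 TPM, in div12_48_u.

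The values are TPM, the abundance of a transcript per length as a share of the library's transcripts in the deposited table. They keep no read number, so the depth is unknown. All 6 B cell markers in the table, among them Cd79a and Cd79b, were above 0 in every library, with summed levels from 13453 to 21821 TPM. The naive libraries also held more of other cells' markers: 13 myeloid markers summed to 894 and 2709 TPM in naive and 254 to 792 TPM elsewhere, and 4 erythroid markers to 2676 and 3196 TPM in naive and 10.9 to 43.5 TPM elsewhere. None of these was at 0 in both naive libraries, while C1qa was at 0 in all 8 others and Slc4a1 in both div0 libraries. Of the myeloid markers, Mpeg1 and Adgre1 had higher means in div12_48_d than in naive, and all others on that list had lower means. Mpeg1 was at 156 ± 76.4 TPM in naive and 548 ± 46.9 TPM in div12_48_d (mean ± SD, n = 2). For Adgre1 these levels were 44.5 ± 29.9 and 171 ± 46.5 TPM. Of 7 T cell markers, 6 summed to 38.4 and 40.5 TPM in naive, 2.19 to 4.15 TPM in Phase I and 3.79 to 5.68 TPM in Phase II. The remaining one, Lck, was at 125 to 151 TPM in naive and Phase I and at 346 to 445 TPM in Phase II. NK cell markers (4 genes) summed to 92.1 and 132 TPM in naive and 3.37 to 6.88 TPM elsewhere. Platelet markers (2 genes) summed to 13.4 and 14.6 TPM in naive and 1.16 to 2.74 TPM elsewhere. Plasma cell markers (6 genes) summed to 2041 and 874 TPM in naive and 389 to 465 TPM in Phase I. In Phase II they summed to 458 and 480 TPM in div12_48_u and 972 and 1193 TPM in div12_48_d. The part of these markers in the differences below was not tested. In these bulk libraries, fewer cells of a type and less RNA per cell cannot be told apart.

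By family, summed levels moved in different directions. DNA methyltransferases (4 genes) summed to 226 ± 5.49 TPM in naive and 408 ± 34.6 TPM in div0 (mean ± SD, n = 2, as for all levels below). Their sum was 483 ± 129 TPM in div12, and 280.2 ± 58.6 and 363 ± 0.809 TPM in the undivided and divided cells of Phase II. TET genes (3) went the other way, with 175 ± 12.3 TPM in naive, 99.2 ± 0.181 TPM in div0 and 90.1 ± 9.78 TPM in div12. In Phase II they summed to 141 ± 16.4 TPM in undivided and 133 ± 9.67 TPM in divided cells. The 10 Kmt2 and Setd genes summed to 1585 ± 63.8 TPM in naive, 1003 ± 135 in div12 and 1623 ± 199.6 in div12_48_u, and the libraries of div12_48_u, at 1764 and 1482 TPM, enclosed those of naive. Classical deacetylases (8 genes) and Smarc genes (7 genes) had narrow ranges, from 1131 ± 33.5 TPM in naive to 1347 ± 9.86 TPM in div12_48_d and from 878 ± 137 TPM in div12 to 1025 ± 25.1 TPM in naive. The group div12 had the lowest mean for 31 of 50 members, against 36.8% of all genes tested, and the sorted undivided cells of Phase II had the highest mean for 14 members, against 15.0% of all genes. These sums and shares are descriptions without a test. In the plot of members by library, genes of the same family did not all move alike. Dnmt3b and Hdac5 had their highest group mean in naive, where Dnmt1, Dnmt3a and Hdac1 had their lowest.

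**Figure D1:**
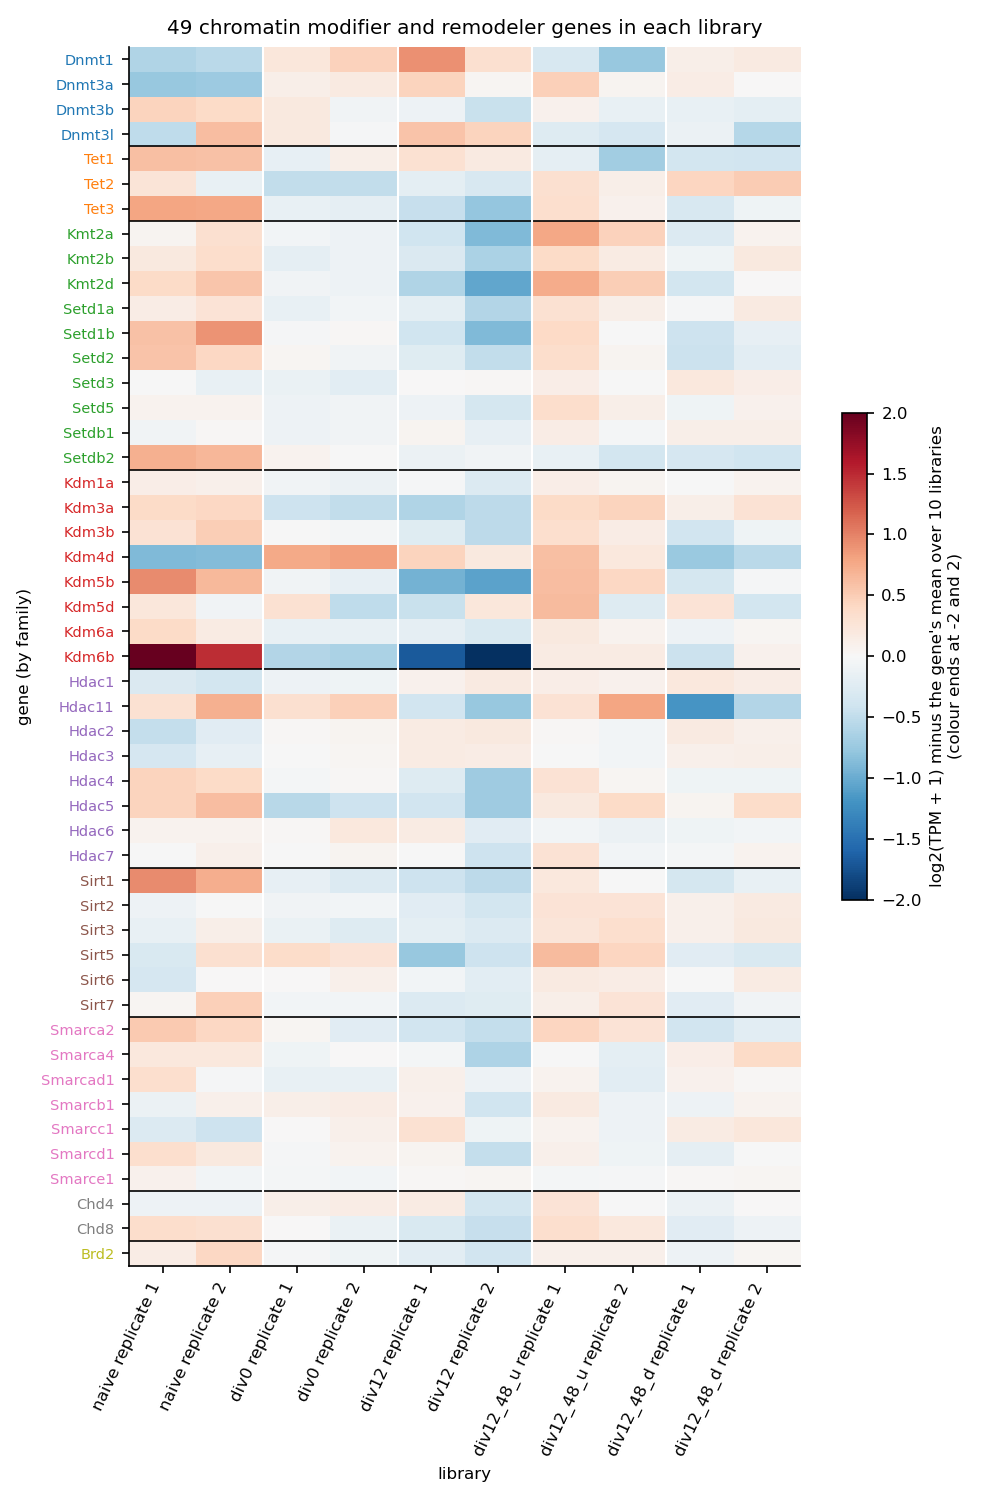
Level of 49 of the 50 members (rows, coloured by family) in each of the 10 libraries (columns), as log2(TPM + 1) minus that gene's mean over the 10 libraries. Dnmt1 and Dnmt3a are low in naive where Tet3, Sirt1, Kdm5b and Kdm6b are high, and rows of long genes such as Kmt2d and Kmt2a are lowest in div12.

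Members were tested with limma on log2(TPM + 1) over all 4427 genes that passed the filter, and a member is called higher or lower where the Benjamini-Hochberg adjusted p over those genes was under 0.05, two-sided. Where no other setting is named, called and not called refer to this fit on the deposited scale. Log2 changes are on that scale, which understates the change of low genes, and folds are those of TPM + 1. In div0 against naive, which compares activated undivided cells with resting cells, 7 members were higher and 19 lower, where 15.4% of all genes were called higher and 39.6% lower (54.9% in either direction). Their median log2 change was -0.26, beside -0.24 over all genes. This split depends on how libraries are scaled: with median-ratio scaling, which moves the median of all genes to 0.00, 11 members were called up and 8 down, beside 26.9% and 24.5% of all genes. Quantile normalization gave 11 and 11, beside 28.7% and 23.0%, and removal of the trend on transcript length 11 and 7, beside 25% and 25.7%. The 10 calls that held under every alternative except a fold of at least 2 were Dnmt1, Dnmt3a and Kdm4d, all higher, and Hdac5, Kdm3a, Kdm5b, Kdm6b, Setdb2, Sirt1 and Tet3, all lower. Without div0 replicate 1 or div0 replicate 2, 14 and 11 members were called in place of 26.

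In div12 against naive, 7 members were higher and 29 lower, where 19.4% and 47.5% of all genes were called (66.9% in either direction), with a median of -0.50 beside -0.35. Median-ratio scaling called 12 up and 18 down, beside 33.6% and 30.9% of all genes. Quantile normalization called 12 and 19, beside 33.3% and 29.2%, and removal of the length trend 13 and 17, beside 31.4% and 32.0%. Both comparisons use the same naive libraries. The members called against naive in div12 and kept under every alternative except the fold of 2 numbered 20 of 36. They were the div0 set and 10 more, among them Hdac1, Hdac2, Hdac3, Hdac4, Kdm3b, Kmt2d, Setd1b, Setd2 and Smarca2.

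Between divided and undivided cells of Phase I (div12 against div0), 0 members were higher and 3 lower, Kdm5b, Kmt2d and Sirt5, where 3.68% of all genes were called higher and 5.08% lower (8.76% in either direction). The median of the members was -0.23, beside -0.07. The calls did not hold under every alternative: 0 members were called without div0 replicate 1, without div0 replicate 2 or without div12 replicate 2, 1 without div12 replicate 1, div12_48_u replicate 1 or div12_48_u replicate 2, 2 without either div12_48_d library, and 5 without either naive library.

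Between divided and undivided cells of Phase II (div12_48_d against div12_48_u), 1 member, Dnmt1, was higher and 10 were lower, where 12.2% and 13.4% of all genes were called (25.6% in either direction). Those lower were Hdac11, Kdm4d, Sirt5, Kmt2d, Kmt2a, Kdm5b, Smarca2, Setd2, Kdm3b and Chd8. Removal of the length trend called 4 up and 9 down, beside 14.6% and 10.9% of all genes. The number called fell to 4 without div12_48_u replicate 1 and to 0 without div12_48_d replicate 1.

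Among undivided cells of Phase II, 25 of 50 members were higher than in the divided cells they came from. In div12_48_u against div12, 25 members were higher and 2 lower, Dnmt1 and Tet1, where 27.7% of all genes were called higher and 13.6% lower (41.3% in either direction). Their median was 0.39, beside 0.16, and median-ratio scaling called 20 up and 7 down, beside 17.8% and 22.0% of all genes. Quantile normalization called 19 and 6, beside 19.2% and 19.3%, and removal of the length trend 19 and 7, beside 18.8% and 20.1%. Fewer were called without div12 replicate 2, 12 members, and without div12_48_u replicate 1, 15 members. Of the members, 23 were lower in div12 than in naive and higher in div12_48_u than in div12, beside 22.8% of all genes tested. These 2 comparisons share the div12 libraries. The divided cells of Phase II against div12 (div12_48_d against div12) had 7 members higher and 1 lower, where 11.9% and 4.09% of all genes were called (15.9% in either direction). Their split was 7 and 4 with median-ratio scaling, beside 9.69% and 10.1% of all genes, 6 and 4 with quantile normalization, beside 8.63% and 8.22%, and 8 and 4 with the length trend removed, beside 10.6% and 9.89%. Only 2 and 1 members were called without div12 replicate 2 and without div12_48_d replicate 2.

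**Figure D2:**
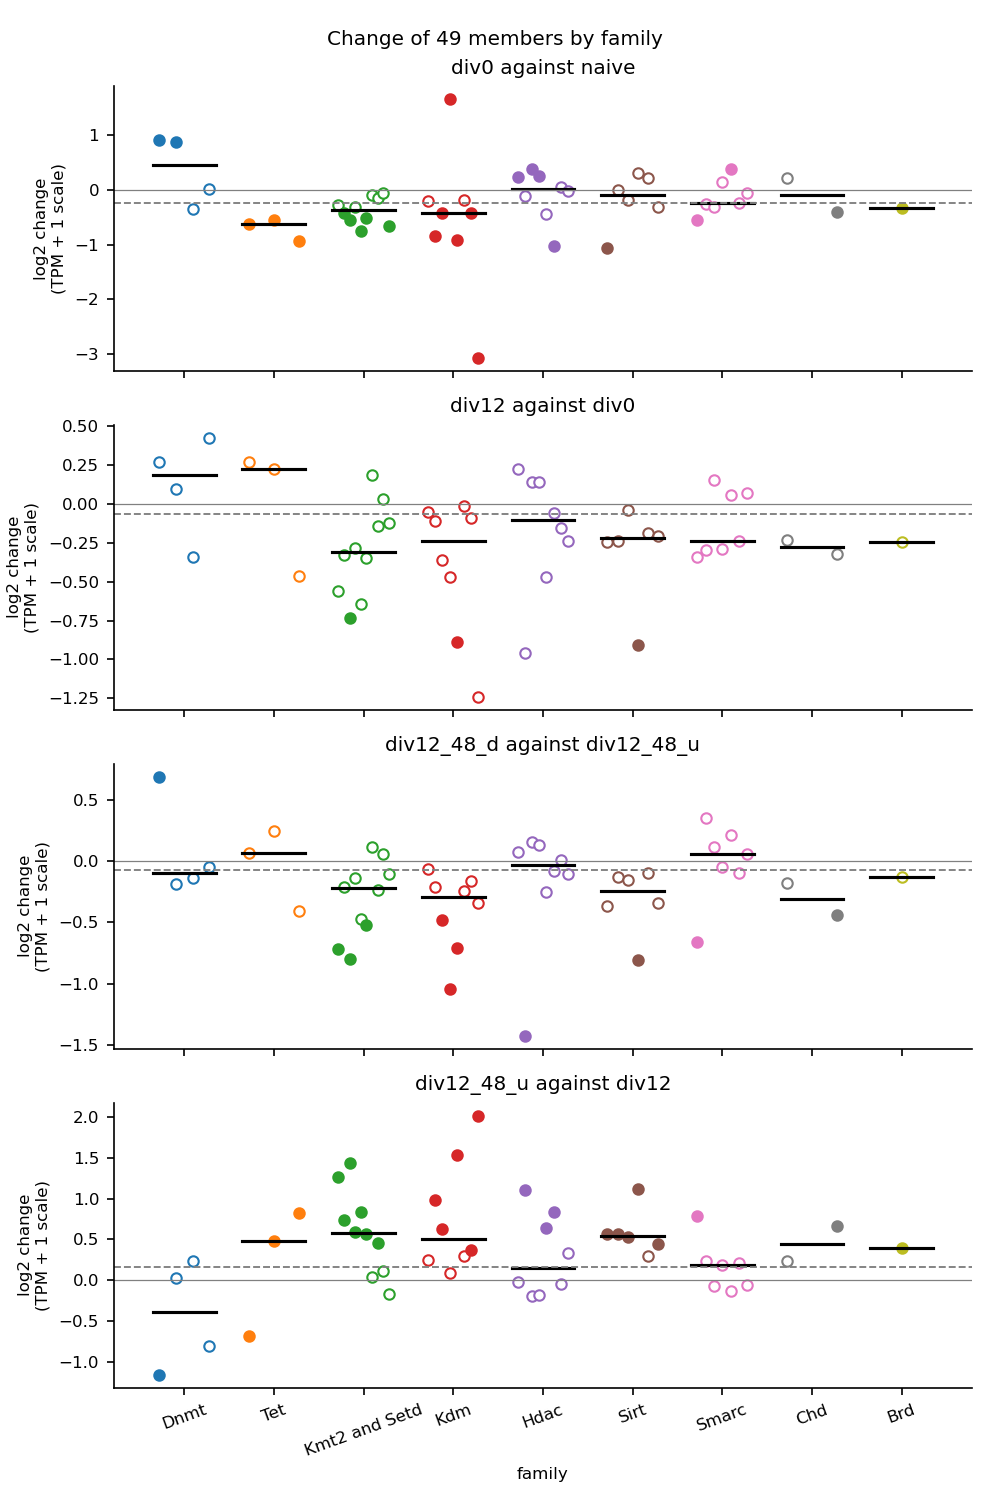
Log2 change of 49 of the 50 members (points, on the log2(TPM + 1) scale) by family in 4 comparisons, filled where limma's adjusted p was under 0.05, with each family's median (black bar) and the median of all 4427 genes (dashed line). The medians of the Dnmt and Tet families lie on opposite sides of 0 in div0 against naive, 3 points are filled in div12 against div0, and 25 filled points lie above 0 in div12_48_u against div12.

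Whether division went with a different change in Phase II than in Phase I was tested as the difference of both contrasts. Limma called 0 of 50 members and 0 of 4427 genes, with 1 member, Smarca4, at an unadjusted p under 0.05, and no other tool was run. Smarca4, an ATPase of SWI/SNF complexes, had a difference of 0.65 ± 0.25 (SE; limma adjusted p = 0.406). A p above the threshold does not show that both divisions changed the members alike.

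Dnmt1 (chr9:20907206-20959888, with gene spans here and below on GRCm38) encodes the maintenance DNA methyltransferase and is the most abundant of its family. Its levels in TPM were 155 and 161 in naive, 275 and 323 in div0, 442 and 293 in div12, 188 and 138 in div12_48_u and 255 and 267 in div12_48_d. Both div0 and div12 pairs lay above both naive libraries, and the pair of div12_48_u lay near naive and below both libraries of div12 and of div12_48_d. Dnmt1 was 1.88-fold higher in div0 than naive, a log2 change of 0.91 ± 0.20 (SE; limma adjusted p = 0.00551), and 2.27-fold higher in div12, 1.19 ± 0.20 (SE; limma adjusted p = 0.000948). It fell in div12_48_u against div12, -1.15 ± 0.20 (SE; limma adjusted p = 0.00258), and was 1.61-fold higher in cells that divided again than in those that did not, 0.69 ± 0.20 (SE; limma adjusted p = 0.0378). The Dnmt1 call in div12_48_d against div12_48_u was lost without div0 replicate 1, div0 replicate 2, div12_48_d replicate 1, div12_48_d replicate 2 or div12_48_u replicate 2 (limma adjusted p = 0.0567 to 0.197). Dnmt1 also lost it in a fit of the compared groups alone, with no filter, with no trend and without the naive group (limma adjusted p = 0.0528 to 0.0681). Genes of dividing cells, 9 in the table with Mki67 among them, summed to 953 and 843 TPM in naive, 1567 and 1325 TPM in div12_48_u and 2593 and 3175 TPM in div0. Their sums were 3347 and 3072 TPM in div12_48_d and 4609 and 4195 TPM in div12, so the group means were lowest in naive and highest in div12 for these genes and for Dnmt1. The Dnmt1 libraries of div12_48_u overlapped naive and those of div12 overlapped div0. The part of the genes of dividing cells in the Dnmt1 levels was not tested.

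Dnmt3a (chr12:3801559-3914443), which methylates unmarked DNA, had levels of 50.8 and 51.8 in naive, 93.7 and 97.3 in div0, 118 and 88.2 in div12, 121 and 89.4 in div12_48_u and 96.2 and 87.0 in div12_48_d (TPM). Every activated library lay above both naive libraries, and the 4 activated groups overlapped. Its change was 0.88 ± 0.17 (SE; limma adjusted p = 0.00295) in div0 and 0.98 ± 0.17 (SE; limma adjusted p = 0.00105) in div12 against naive, and it was not called in any comparison between activated groups. Dnmt3b, the other enzyme of this kind, ran from 9.16 ± 1.73 TPM in div12 to 15.3 ± 0.590 TPM in naive and was lower in div12 than naive, -0.69 ± 0.17 (SE; limma adjusted p = 0.00736). The Dnmt3b call in div12 against naive was lost without div12 replicate 2 (limma adjusted p = 0.0577). Dnmt3b also lost it with median-ratio scaling, with the most abundant transcript, with quantile normalization and with the length trend removed (limma adjusted p = 0.0795 to 0.338). Dnmt3l, a partner without catalytic activity, ran from 0.990 ± 0.446 TPM in div12_48_d to 2.54 ± 0.213 TPM in div12 and was not called.

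Split by annotated start, the Dnmt1 transcript of the first start went from 52.5 ± 1.60 TPM in naive to 125 ± 17.6 in div0 and 186 ± 54.2 in div12, and was at 52.5 ± 9.12 in div12_48_u and 113 ± 11.2 in div12_48_d. The 3 transcripts of the second start went from 102 ± 1.18 TPM in naive to 169.9 ± 16.1 in div0 and 177 ± 51.9 in div12. Relative to naive, the first start had the wider range of the pair. For Dnmt3a the transcript of the second start went from 23.5 ± 1.75 TPM in naive to 60.8 ± 0.816 in div0, while that of the third start was at 11.7 ± 3.19 TPM in naive and 11.2 ± 1.62 in div0. These are the deposited apportionments of 50-base single-end reads among transcripts that share exons, so the split between starts is uncertain and was not tested.

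**Figure D3:**
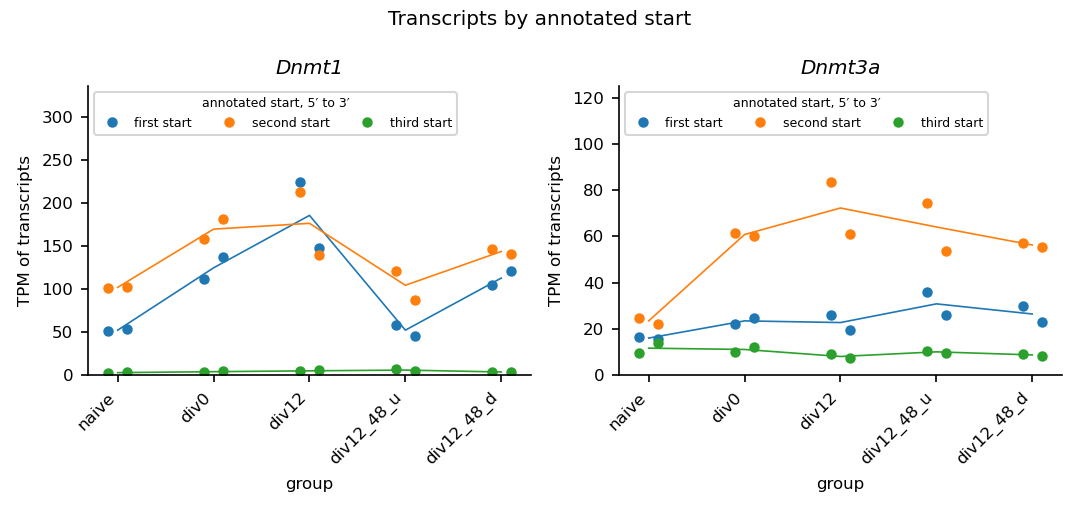
TPM of Dnmt1 and Dnmt3a transcripts by annotated start (colours; points are libraries, lines join group means). The first and second starts of Dnmt1 both have their highest mean in div12. For the second start the div12 libraries, at 213 and 140 TPM, enclose those of div0, at 159 and 181 TPM. The third start of Dnmt3a stays between 7 and 14 TPM while its second start is above 50 TPM in every activated library.

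Tet3 (chr6:83362373-83457208), which oxidises methylated cytosine, had the highest mean of the TET genes over all libraries, though Tet2 was higher in both div12_48_d libraries and overlapped it in div12. Tet3 had 116 and 115 in naive, 60.1 and 59.2 in div0, 48.2 and 38.5 in div12, 84.3 and 70.7 in div12_48_u and 53.1 and 63.1 in div12_48_d (TPM). Both naive libraries lay above all others, and both div12 libraries below all others. Tet3 was 1.92-fold lower in div0, -0.94 ± 0.14 (SE; limma adjusted p = 0.000891), and 2.64-fold lower in div12, -1.40 ± 0.14 (SE; limma adjusted p = 6.28e-05), than in naive, and rose in div12_48_u against div12, 0.83 ± 0.14 (SE; limma adjusted p = 0.00236). Tet2, a tumour suppressor of blood cells, had a different order of levels in TPM: 63.2 and 47.6 in naive, 37.3 and 37.4 in div0, 45.8 and 42.0 in div12, 66.2 and 57.6 in div12_48_u and 71.7 and 75.5 in div12_48_d. Its highest pair was div12_48_d, above every other library. Tet2 fell in div0 against naive, -0.54 ± 0.14 (SE; limma adjusted p = 0.0126), and rose in div12_48_u against div12, 0.48 ± 0.14 (SE; limma adjusted p = 0.0256), and in div12_48_d against div12, 0.73 ± 0.14 (SE; limma adjusted p = 0.0111). The Tet2 call in div0 against naive was lost without div0 replicate 1, div0 replicate 2 or naive replicate 1 (limma adjusted p = 0.0518 to 0.0609). Tet2 also lost it in a fit of the compared groups alone, with median-ratio scaling, with the most abundant transcript, with quantile normalization and with the length trend removed (limma adjusted p = 0.0629 to 0.324). The Tet2 call in div12_48_u against div12 was lost without div12 replicate 1, div12 replicate 2 or div12_48_u replicate 1 (limma adjusted p = 0.0528 to 0.146). Tet2 also lost it with median-ratio scaling, with the most abundant transcript, with quantile normalization and with the length trend removed (limma adjusted p = 0.0605 to 0.675). The Tet2 call in div12_48_d against div12 was lost without div12 replicate 2 or div12_48_d replicate 2 (limma adjusted p = 0.0736 to 0.0869). Tet2 also lost it with the most abundant transcript (limma adjusted p = 0.116). Tet1 was scarce, from 1.43 ± 0.619 TPM in div12_48_u to 3.90 ± 0.0505 TPM in naive. It was lower in div0 than naive, -0.62 ± 0.21 (SE; limma adjusted p = 0.0345), where quantile normalization turned the sign to 0.20, and lower in div12_48_u than div12, -0.68 ± 0.21 (SE; limma adjusted p = 0.0319). The Tet1 call in div0 against naive was lost without div0 replicate 1, div0 replicate 2, div12 replicate 1, div12 replicate 2, div12_48_d replicate 1, div12_48_d replicate 2, naive replicate 1 or naive replicate 2 (limma adjusted p = 0.0519 to 0.185). Tet1 also lost it in a fit of the compared groups alone, with median-ratio scaling, with a pseudocount of 0.1, with quantile normalization and with the length trend removed (limma adjusted p = 0.0560 to 0.443). The Tet1 call in div12_48_u against div12 was lost without div12 replicate 1, div12 replicate 2, div12_48_d replicate 1, div12_48_d replicate 2 or div12_48_u replicate 2 (limma adjusted p = 0.0504 to 0.169). Tet1 also lost it in a fit of the compared groups alone (limma adjusted p = 0.0763).

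Of the 10 histone methyltransferase genes, 0 were higher and 5 lower in div0 against naive, 0 and 8 in div12 against naive, 0 and 3 in div12_48_d against div12_48_u, and 7 and 0 in div12_48_u against div12. With median-ratio scaling these counts were 0 and 2, and 2 and 6, against naive, and 7 and 1 in div12_48_u against div12, and with quantile normalization 0 and 3, 2 and 7, and 7 and 1. With the length trend removed they were 1 and 1, 3 and 4, and 5 and 1, so the counts against naive depend on these choices. The shares of all genes called are those given above for each comparison and setting. Kmt2d (chr15:98831669-98874077), which methylates lysine 4 of histone H3 at enhancers and is often mutated in B cell lymphoma, had 240.1 and 269.9 in naive, 176 and 171 in div0, 121 and 89.4 in div12, 309 and 261 in div12_48_u and 143 and 185 in div12_48_d (TPM). The div12 pair lay below every other library, and div12_48_u did not overlap div12, div0 or div12_48_d. Kmt2d was 2.43-fold lower in div12 than naive, -1.28 ± 0.17 (SE; limma adjusted p = 0.000275), and 2.71-fold higher in div12_48_u than div12, 1.44 ± 0.17 (SE; limma adjusted p = 0.000522). It was lower in divided than undivided cells in both phases, -0.73 ± 0.17 (SE; limma adjusted p = 0.0395) in Phase I and -0.80 ± 0.17 (SE; limma adjusted p = 0.0118) in Phase II, and rose in div12_48_d against div12, 0.64 ± 0.17 (SE; limma adjusted p = 0.0401). The Kmt2d call in div12 against div0 was lost without div0 replicate 1, div0 replicate 2, div12 replicate 2, div12_48_u replicate 1 or div12_48_u replicate 2 (limma adjusted p = 0.0551 to 0.248). Kmt2d also lost it in a fit of the compared groups alone, with the most abundant transcript, with no filter, with no trend and with the replicate block (limma adjusted p = 0.0517 to 0.0732). The Kmt2d call in div12_48_d against div12_48_u was lost without div12_48_d replicate 1 or div12_48_u replicate 1 (limma adjusted p = 0.0812 to 0.0963). The Kmt2d call in div12_48_d against div12 was lost without div0 replicate 1, div0 replicate 2, div12 replicate 2, div12_48_d replicate 2, div12_48_u replicate 1 or div12_48_u replicate 2 (limma adjusted p = 0.0548 to 0.267). Kmt2d also lost it in a fit of the compared groups alone, with the most abundant transcript, with no filter, with no trend and with the replicate block (limma adjusted p = 0.0510 to 0.147).

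Kmt2a (chr9:44803355-44881352), the MLL gene that is rearranged in leukaemia, had the same order of group means as Kmt2d, with 212 and 256 in naive, 196 and 190.3 in div0, 155 and 111 in div12, 351 and 282 in div12_48_u and 169.7 and 215 in div12_48_d (TPM). Both div12_48_u libraries lay above all others. Kmt2a rose in div12_48_u against div12, 1.26 ± 0.19 (SE; limma adjusted p = 0.00142), and was lower in div12_48_d than div12_48_u, -0.72 ± 0.19 (SE; limma adjusted p = 0.0258). The Kmt2a call in div12_48_d against div12_48_u was lost without div12_48_d replicate 1 or div12_48_u replicate 1 (limma adjusted p = 0.156 to 0.177). Kmt2a also lost it in a fit of the compared groups alone and with the length trend removed (limma adjusted p = 0.0560 to 0.0617). Setd1b, another lysine 4 methyltransferase, had 85.6 and 107 in naive, 55.9 and 57.8 in div0, 42.9 and 30.4 in div12, 75.2 and 56.6 in div12_48_u and 42.6 and 51.0 in div12_48_d (TPM). Both naive libraries were highest. Setd1b fell in div12 against naive, -1.38 ± 0.20 (SE; limma adjusted p = 0.000438). Kmt2b ran from 91.6 ± 15.3 TPM in div12 to 153 ± 12.5 TPM in naive and Setd1a from 78.8 ± 15.0 TPM in div12 to 119 ± 10.8 TPM in div12_48_u. Setd2, the lysine 36 methyltransferase, ran from 124 ± 16.1 TPM in div12 to 227 ± 17.3 TPM in naive. Setd5 ran from 157 ± 18.5 TPM in div12 to 216 ± 23.6 TPM in div12_48_u. Setd5 was called lower in div12 than naive, -0.30 ± 0.11 (SE; limma adjusted p = 0.0429), but its sign turned with median-ratio scaling, to 0.08, and with the length trend removed, to 0.22. The Setd5 call in div12 against naive was lost without div0 replicate 1, div0 replicate 2, div12 replicate 2, naive replicate 1 or naive replicate 2 (limma adjusted p = 0.0676 to 0.249). Setd5 also lost it in a fit of the compared groups alone, with median-ratio scaling, with no filter, with no trend, with quantile normalization and with the replicate block (limma adjusted p = 0.0523 to 0.532). Setdb2 departed from the rest as the 1 gene of the family with a negative change in div12_48_u against div12, -0.17, which was not called. It ran from 43.9 ± 1.65 TPM in div12_48_d to 92.4 ± 1.53 TPM in naive. Setdb2 was lower in div0, -0.65 ± 0.10 (SE; limma adjusted p = 0.00111), and div12, -0.78 ± 0.10 (SE; limma adjusted p = 0.000248), than naive. On the deposited scale its Phase II levels were not called different from div12. Setdb1, which methylates lysine 9, ran from 86.7 ± 0.828 TPM in div0 to 99.8 ± 0.0592 TPM in div12_48_d, and Setd3 from 118 ± 3.79 TPM in div0 to 150.1 ± 5.58 TPM in div12_48_d. On the deposited scale neither was called in any comparison.

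Among the 8 demethylase genes, Kdm4d was the 1 that rose in div0 and div12 against naive, while 5 and 6 were lower, and 5 rose in div12_48_u against div12. Of all genes, 15.4% and 19.4% were higher and 39.6% and 47.5% lower against naive, and 27.7% were higher in div12_48_u against div12. With median-ratio scaling, quantile normalization or the length trend removed, 3 and 4 were lower against naive and 4 rose in div12_48_u against div12. The shares of all genes under these settings are those given above. Kdm5b (chr1:134560178-134632878), which removes methyl groups from lysine 4 of histone H3, had 53.6 and 43.8 in naive, 26.0 and 24.3 in div0, 13.7 and 12.5 in div12, 42.6 and 37.1 in div12_48_u and 21.2 and 27.1 in div12_48_d (TPM). The div12 pair lay below all other libraries, and naive and div12_48_u did not overlap div0, div12 or div12_48_d. Kdm5b was 1.89-fold lower in div0, -0.92 ± 0.16 (SE; limma adjusted p = 0.00182), and 3.50-fold lower in div12, -1.81 ± 0.16 (SE; limma adjusted p = 3.4e-05), than naive. It was called in all 6 group comparisons: lower in div12 than div0, -0.89 ± 0.16 (SE; limma adjusted p = 0.0208), higher in div12_48_u than div12, 1.53 ± 0.16 (SE; limma adjusted p = 0.000324), lower in div12_48_d than div12_48_u, -0.71 ± 0.16 (SE; limma adjusted p = 0.0145), and higher in div12_48_d than div12, 0.82 ± 0.16 (SE; limma adjusted p = 0.0108). The Kdm5b call in div12 against div0 was lost without div0 replicate 1, div0 replicate 2, div12 replicate 1 or div12 replicate 2 (limma adjusted p = 0.0532 to 0.203). The Kdm5b call in div12_48_d against div12_48_u was lost without div12_48_d replicate 1 or div12_48_u replicate 1 (limma adjusted p = 0.0877 to 0.116). Kdm5b also lost it in a fit of the compared groups alone (limma adjusted p = 0.0636). The Kdm5b call in div12_48_d against div12 was lost without div12 replicate 2 or div12_48_d replicate 2 (limma adjusted p = 0.0708 to 0.0938). Kdm5b also lost it in a fit of the compared groups alone and with quantile normalization (limma adjusted p = 0.0514 to 0.0604).

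Kdm6b (chr11:69398508-69420367), an inducible demethylase of lysine 27 of histone H3, had 358 and 90.6 in naive, 20.8 and 20.3 in div0, 9.26 and 7.11 in div12, 35.8 and 35.9 in div12_48_u and 23.3 and 33.6 in div12_48_d (TPM). The naive libraries differed widely from each other, and both lay above all others. Kdm6b was lower in div0, -3.07 ± 0.51 (SE; limma adjusted p = 0.00156), and in div12, -4.31 ± 0.51 (SE; limma adjusted p = 0.00015), than in naive, and rose in div12_48_u against div12, 2.01 ± 0.51 (SE; limma adjusted p = 0.0144). The Kdm6b call in div12_48_u against div12 was lost without div12 replicate 2, div12_48_u replicate 1 or div12_48_u replicate 2 (limma adjusted p = 0.0617 to 0.0798). In the same naive libraries the 13 immediate early genes in the table summed to 10977 and 5718 TPM, against 442 to 1917 TPM in all other libraries. Single genes differed in how the naive replicates 1 and 2 compared. Nr4a1 had 4603 and 546 TPM, Fos 970 and 1702 TPM and Jun 447 and 422 TPM. The part of the immediate early genes in the Kdm6b levels was not tested.

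Kdm3a (chr6:71588970-71632990), which demethylates lysine 9 of histone H3, had 127 and 129 in naive, 73.1 and 68.6 in div0, 63.7 and 67.2 in div12, 127 and 133 in div12_48_u and 105 and 119.6 in div12_48_d (TPM). Naive and div12_48_u overlapped, and div0 and div12 lay below every Phase II library. Kdm3a was lower in div0 than naive, -0.85 ± 0.09 (SE; limma adjusted p = 0.000196), higher in div12_48_u than div12, 0.98 ± 0.09 (SE; limma adjusted p = 0.00022), and higher in div12_48_d than div12, 0.77 ± 0.09 (SE; limma adjusted p = 0.00157). The Kdm3a call in div12_48_d against div12 was lost with the most abundant transcript (limma adjusted p = 0.0763). Kdm3b, its relative and the most abundant demethylase gene in all libraries but naive replicate 1, had 196 and 226 in naive, 159.5 and 155 in div0, 135 and 110.5 in div12, 202 and 178 in div12_48_u and 122 and 151 in div12_48_d (TPM). Divided cells of Phase II lay below undivided cells of Phase II in every library, with a change of -0.48 ± 0.14 (SE; limma adjusted p = 0.0381), and Kdm3b fell in div12 against naive, -0.78 ± 0.14 (SE; limma adjusted p = 0.00124). The Kdm3b call in div12_48_d against div12_48_u was lost without div0 replicate 1, div0 replicate 2, div12_48_d replicate 1, div12_48_u replicate 1 or div12_48_u replicate 2 (limma adjusted p = 0.0670 to 0.242). Kdm3b also lost it in a fit of the compared groups alone, with no filter, with no trend and with the replicate block (limma adjusted p = 0.0556 to 0.0832).

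Kdm4d stood apart as a rise at a low level. It ran from 0.994 ± 0.0201 TPM in naive to 5.34 ± 0.223 TPM in div0, so it falls under the level of 10 TPM set for genes described by library and was singled out after its values were seen. Kdm4d was higher in div0, 1.67 ± 0.19 (SE; limma adjusted p = 0.000268), and in div12, 1.20 ± 0.19 (SE; limma adjusted p = 0.000766), than naive, and lower in div12_48_d than in div12_48_u, -1.05 ± 0.19 (SE; limma adjusted p = 0.00705), and than in div12, -0.96 ± 0.19 (SE; limma adjusted p = 0.0137). The Kdm4d call in div12_48_d against div12_48_u was lost without div12_48_d replicate 1 (limma adjusted p = 0.0644). The Kdm4d call in div12_48_d against div12 was lost without div12 replicate 1, div12_48_d replicate 1 or div12_48_d replicate 2 (limma adjusted p = 0.0596 to 0.0763). Kdm1a, the lysine demethylase LSD1, ran from 109 ± 13.8 TPM in div12 to 131 ± 2.08 TPM in naive. It was called lower in div12 than naive, -0.26 ± 0.10 (SE; limma adjusted p = 0.0447), but its sign turned with median-ratio scaling, to 0.12, with quantile normalization, to 0.0036, and with the length trend removed, to 0.07. The Kdm1a call in div12 against naive was lost without div0 replicate 1, div0 replicate 2, div12 replicate 2, div12_48_d replicate 1, div12_48_d replicate 2, div12_48_u replicate 1, div12_48_u replicate 2, naive replicate 1 or naive replicate 2 (limma adjusted p = 0.0589 to 0.276). Kdm1a also lost it in a fit of the compared groups alone, with median-ratio scaling, with the most abundant transcript, with no trend, with quantile normalization, with the replicate block and with the length trend removed (limma adjusted p = 0.0509 to 0.971). Kdm6a, on the X chromosome, ran from 75.2 ± 4.85 TPM in div12 to 108 ± 11.4 TPM in naive. Kdm5d, on the Y chromosome, ran from 16.2 ± 5.56 TPM in div12 to 20.6 ± 9.09 TPM in div12_48_u; its replicates differed more than its groups, and it was not called.

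**Figure D4:**
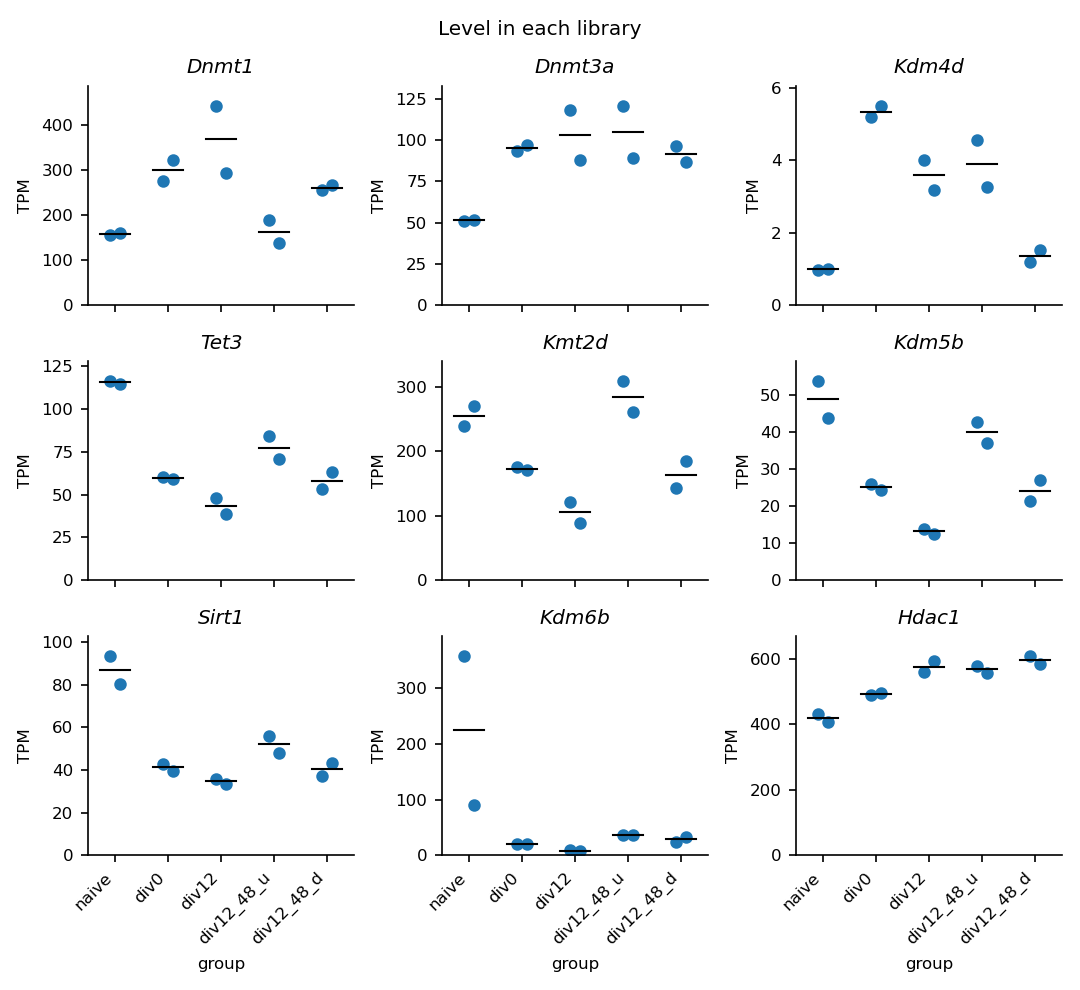
TPM of 9 members in each library (points) by group, with the group mean (bar) and axes that start at 0. Dnmt1 and Dnmt3a are above naive in div0 and div12, Kmt2d and Kdm5b are lowest in div12 and rise again in div12_48_u, and Kdm6b has 358 and 90.6 TPM in the naive libraries and at most 35.9 TPM elsewhere.

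Of the 8 classical deacetylases, Hdac1, Hdac2 and Hdac3, the nuclear class I enzymes, were higher in div0 and in div12 than in naive, while Hdac4, Hdac5 and Hdac11 were lower in div12 than naive and Hdac6 and Hdac7 were not called. Hdac1 (chr4:129516104-129542646) was the most abundant, with 432 and 406 in naive, 490.1 and 496 in div0, 559.8 and 594 in div12, 578 and 558 in div12_48_u and 608 and 585 in div12_48_d (TPM). Every activated library lay above both naive libraries. Its change was 0.23 ± 0.07 (SE; limma adjusted p = 0.0210) in div0 and 0.46 ± 0.07 (SE; limma adjusted p = 0.000532) in div12. The Hdac1 call in div0 against naive was lost without div0 replicate 1, div0 replicate 2 or naive replicate 2 (limma adjusted p = 0.0852 to 0.106). Hdac1 also lost it with no trend (limma adjusted p = 0.0521). Hdac2 had 99.6 and 118 in naive, 140.1 and 144 in div0, 155 and 159 in div12, 141 and 134 in div12_48_u and 157 and 149 in div12_48_d (TPM), again with both naive libraries lowest, and changed by 0.39 ± 0.10 (SE; limma adjusted p = 0.00917) and 0.53 ± 0.10 (SE; limma adjusted p = 0.00132). The Hdac2 call in div0 against naive was lost without div0 replicate 2 (limma adjusted p = 0.0617). Hdac3 had 131 and 148 in naive, 163 and 168 in div0, 184 and 182 in div12, 164 and 159 in div12_48_u and 177 and 178 in div12_48_d (TPM), with the same separation, and changed by 0.25 ± 0.08 (SE; limma adjusted p = 0.0282) and 0.39 ± 0.08 (SE; limma adjusted p = 0.00255). The Hdac3 call in div0 against naive was lost without div0 replicate 1, div0 replicate 2 or naive replicate 1 (limma adjusted p = 0.0875 to 0.144). Hdac3 also lost it in a fit of the compared groups alone (limma adjusted p = 0.0806). On the deposited scale none of these 3 genes was called between activated groups. With median-ratio scaling, quantile normalization or the length trend removed, 2 of the 8 classical deacetylases were called lower in div12_48_u against div12. The shares of all genes called lower there were 22.0%, 19.3% and 20.1%.

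Hdac5, a class II enzyme that shuttles between nucleus and cytoplasm, had 106 and 119.6 in naive, 52.5 and 58.0 in div0, 59.4 and 47.1 in div12, 88.9 and 102 in div12_48_u and 80.5 and 101 in div12_48_d (TPM). Naive lay above div0 and div12 without overlap, and both Phase II groups lay between. Hdac5 was 2.03-fold lower in div0 than naive, -1.02 ± 0.15 (SE; limma adjusted p = 0.000938), and rose in div12_48_u, 0.84 ± 0.15 (SE; limma adjusted p = 0.00340), and div12_48_d, 0.76 ± 0.15 (SE; limma adjusted p = 0.0137), against div12. The Hdac5 call in div12_48_u against div12 was lost with the most abundant transcript (limma adjusted p = 0.140). The Hdac5 call in div12_48_d against div12 was lost without div12 replicate 2 or div12_48_d replicate 2 (limma adjusted p = 0.0875 to 0.113). Hdac5 also lost it in a fit of the compared groups alone and with the most abundant transcript (limma adjusted p = 0.0804 to 0.205). Hdac11, the single class IV enzyme, had 10.4 and 14.0 in naive, 10.4 and 11.7 in div0, 6.05 and 4.45 in div12, 10.2 and 14.9 in div12_48_u and 3.06 and 5.10 in div12_48_d (TPM). Divided cells of both phases lay below undivided cells and naive, without overlap. Hdac11 was lower in div12_48_d than div12_48_u, -1.43 ± 0.27 (SE; limma adjusted p = 0.00730), whereas the difference of div12 from div0 was not called, -0.96 ± 0.27 (SE; limma adjusted p = 0.0576). The Hdac11 call in div12 against naive was lost without div12 replicate 2 (limma adjusted p = 0.0520). Hdac11 also lost it with quantile normalization (limma adjusted p = 0.150). The Hdac11 call in div12_48_d against div12_48_u was lost without div12_48_d replicate 1 (limma adjusted p = 0.0638). Hdac11 also lost it in a fit of the compared groups alone (limma adjusted p = 0.0511). Hdac4 ran from 9.74 ± 2.37 TPM in div12 to 18.8 ± 0.644 TPM in naive, with a change of -0.90 ± 0.17 (SE; limma adjusted p = 0.00185) in div12 against naive. Hdac7, from 239 ± 45.7 TPM in div12 to 300.0 ± 51.0 TPM in div12_48_u, and Hdac6, from 33.9 ± 1.15 TPM in div12_48_u to 39.2 ± 3.60 TPM in div0, were not called in any comparison on the deposited scale.

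Sirtuins are deacetylases that depend on NAD. In div12_48_u against div12, 5 of 6 were called higher, beside 27.7% of all genes. The number was 3 with median-ratio scaling, beside 17.8%, 2 with quantile normalization, beside 19.2%, and 5 with the length trend removed, beside 18.8%. Sirt1 (chr10:63319005-63339035), a nuclear enzyme, had 93.4 and 80.3 in naive, 42.9 and 39.6 in div0, 36.0 and 33.3 in div12, 56.2 and 48.1 in div12_48_u and 37.4 and 43.2 in div12_48_d (TPM). Both naive libraries lay above all others, and div0, div12 and div12_48_d lay below div12_48_u. Sirt1 was 2.08-fold lower in div0, -1.05 ± 0.13 (SE; limma adjusted p = 0.000349), and 2.46-fold lower in div12, -1.30 ± 0.13 (SE; limma adjusted p = 6.31e-05), than naive. Sirt5, a mitochondrial enzyme that removes succinyl and related groups, had 11.1 and 17.8 in naive, 18.4 and 17.1 in div0, 7.88 and 10.3 in div12, 22.3 and 19.3 in div12_48_u and 11.8 and 11.1 in div12_48_d (TPM). Undivided cells lay above divided cells in each phase without overlap. Its change was -0.91 ± 0.22 (SE; limma adjusted p = 0.0421) in div12 against div0, -0.81 ± 0.22 (SE; limma adjusted p = 0.0292) in div12_48_d against div12_48_u and 1.12 ± 0.22 (SE; limma adjusted p = 0.00450) in div12_48_u against div12. The Sirt5 call in div12 against div0 was lost without div0 replicate 1, div0 replicate 2, div12 replicate 1, div12 replicate 2, div12_48_d replicate 1, div12_48_d replicate 2, div12_48_u replicate 1 or div12_48_u replicate 2 (limma adjusted p = 0.0592 to 0.259). Sirt5 also lost it in a fit of the compared groups alone, with the most abundant transcript, with no filter, with no trend, with quantile normalization and with the replicate block (limma adjusted p = 0.0511 to 0.0781). The Sirt5 call in div12_48_d against div12_48_u was lost without div0 replicate 1, div0 replicate 2, div12_48_d replicate 1, div12_48_d replicate 2, div12_48_u replicate 1 or div12_48_u replicate 2 (limma adjusted p = 0.0533 to 0.146). Sirt5 also lost it with no filter (limma adjusted p = 0.0566). Sirt7, a nucleolar enzyme and the most abundant sirtuin, had 266 and 361 in naive, 249 and 250.1 in div0, 214 and 219 in div12, 281 and 312 in div12_48_u and 222 and 247 in div12_48_d (TPM). Its naive pair overlapped div12_48_u and lay above div0, div12 and div12_48_d. Sirt7 was lower in div12 than naive, -0.52 ± 0.14 (SE; limma adjusted p = 0.00906), and higher in div12_48_u than div12, 0.45 ± 0.14 (SE; limma adjusted p = 0.0281). The Sirt7 call in div12 against naive was lost in a fit of the compared groups alone, with median-ratio scaling and with quantile normalization (limma adjusted p = 0.0540 to 0.385). The Sirt7 call in div12_48_u against div12 was lost without div12 replicate 1, div12 replicate 2, div12_48_u replicate 1 or div12_48_u replicate 2 (limma adjusted p = 0.0625 to 0.137). Sirt7 also lost it with median-ratio scaling and with quantile normalization (limma adjusted p = 0.0676 to 0.191). Sirt2 ran from 149 ± 9.62 TPM in div12 to 220.3 ± 0.350 TPM in div12_48_u, Sirt3 from 29.4 ± 1.06 TPM in div12 to 42.8 ± 1.97 TPM in div12_48_u, and Sirt6, which was not called, from 58.6 ± 9.71 TPM in naive to 73.8 ± 1.14 TPM in div12_48_u. Sirt2 was called lower in div12 than naive, -0.24 ± 0.08 (SE; limma adjusted p = 0.0258), but its sign turned with median-ratio scaling, to 0.14. The Sirt2 call in div12 against naive was lost without div12 replicate 2 or naive replicate 2 (limma adjusted p = 0.0983 to 0.138). Sirt2 also lost it in a fit of the compared groups alone, with median-ratio scaling, with the most abundant transcript, with quantile normalization and with the length trend removed (limma adjusted p = 0.103 to 0.961).

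Among the 7 Smarc genes, Smarcc1 was the 1 that rose against naive (1 to 2 genes with other scaling or the length trend removed) and, on the deposited scale, Smarca2 the 1 called between activated groups. Smarcc1, a scaffold of SWI/SNF complexes, had 89.7 and 81.4 in naive, 109 and 116 in div0, 133 and 102 in div12, 114 and 101 in div12_48_u and 122 and 126 in div12_48_d (TPM), with every activated library above both naive libraries. Its change was 0.39 ± 0.13 (SE; limma adjusted p = 0.0332) in div0 and 0.45 ± 0.13 (SE; limma adjusted p = 0.0153) in div12. The Smarcc1 call in div0 against naive was lost without div0 replicate 1, div0 replicate 2 or naive replicate 2 (limma adjusted p = 0.0822 to 0.154). The Smarcc1 call in div12 against naive was lost without div12 replicate 1 or naive replicate 2 (limma adjusted p = 0.0665 to 0.0966). Smarcc1 also lost it in a fit of the compared groups alone (limma adjusted p = 0.0766). Smarca2 (BRM), an ATPase of the complex, ran from 74.6 ± 3.71 TPM in div12 to 140.1 ± 6.99 TPM in naive, was lower in div12 than naive, -0.90 ± 0.12 (SE; limma adjusted p = 0.000245), higher in div12_48_u than div12, 0.79 ± 0.12 (SE; limma adjusted p = 0.00142), and lower in div12_48_d than div12_48_u, -0.66 ± 0.12 (SE; limma adjusted p = 0.00629). The Smarca2 call in div12_48_d against div12_48_u was lost without div12_48_d replicate 1 (limma adjusted p = 0.0578). Smarca4 (BRG1), the alternative ATPase, ran from 147 ± 41.7 TPM in div12 to 218 ± 28.1 TPM in div12_48_d, with a change of 0.36 ± 0.18 (SE; limma adjusted p = 0.177) in div12_48_d against div12_48_u that was not called. Smarcb1, with the highest mean of the Smarc genes over all libraries, though below Smarce1 in div12 and Smarca4 in div12_48_d by group mean, had 197 and 229 in naive, 233 and 237 in div0, 228 and 162 in div12, 242 and 199 in div12_48_u and 200.3 and 225 in div12_48_d (TPM). Both div0 libraries lay above both naive libraries, div12 replicate 2 was the lowest library, and Smarcb1 was not called. Smarce1, from 195 ± 2.02 TPM in div0 to 205 ± 0.351 TPM in div12_48_d, Smarcd1, from 71.2 ± 18.5 TPM in div12 to 98.1 ± 6.50 TPM in naive, and Smarcad1, a remodeler outside SWI/SNF, from 60.0 ± 0.189 TPM in div0 to 75.1 ± 13.4 TPM in naive, were the others. Of these, Smarcd1 was called lower in div12 than naive, -0.48 ± 0.17 (SE; limma adjusted p = 0.0315). The Smarcd1 call in div12 against naive was lost without div12 replicate 2 or naive replicate 1 (limma adjusted p = 0.109 to 0.208). Smarcd1 also lost it in a fit of the compared groups alone, with median-ratio scaling, with quantile normalization and with the length trend removed (limma adjusted p = 0.111 to 0.536).

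Chd4, the ATPase of the NuRD complex, was the most abundant remodeler gene among the members. It had 462 and 460.1 in naive, 533 and 545 in div0, 551 and 382 in div12, 595 and 491 in div12_48_u and 456 and 497 in div12_48_d (TPM). Both naive libraries lay below div0 and div12_48_u and within the range of div12, and on the deposited scale Chd4 was not called in any comparison. Of the 2 Chd genes, 1 was called higher in div0 against naive with median-ratio scaling, with quantile normalization and with the length trend removed. The number called lower was 0, 1 and 0. In div12 against naive 1, 0 and 1 were higher and 1, 1 and 0 lower. The shares of all genes in these fits are those given above. Chd8 ran from 132 ± 10.2 TPM in div12 to 218 ± 3.37 TPM in naive, fell in div12 against naive, -0.72 ± 0.10 (SE; limma adjusted p = 0.000252), and rose in div12_48_u against div12, 0.66 ± 0.10 (SE; limma adjusted p = 0.00124). The Chd8 call in div12 against naive was lost with the length trend removed (limma adjusted p = 0.0834). Brd2, a reader of acetylated histones, had 402 and 485 in naive, 358 and 343 in div0, 315 and 277 in div12, 392 and 388 in div12_48_u and 340.3 and 372 in div12_48_d (TPM), with both naive libraries highest and both div12 libraries lowest. Of the Brd2 value, 88.1% was on a transcript that RefSeq lists as noncoding. Of the coding transcripts, one had a mean of 16.3 TPM in naive and 22.7 TPM in div12 and the other 31.0 and 13.7 TPM. The summed Brd2 was lower in div12 than naive, -0.58 ± 0.11 (SE; limma adjusted p = 0.00154), and higher in div12_48_u than div12, 0.40 ± 0.11 (SE; limma adjusted p = 0.0183). The Brd2 call in div12 against naive was lost with median-ratio scaling and with the length trend removed (limma adjusted p = 0.0706 to 0.168). The Brd2 call in div12_48_u against div12 was lost without div12 replicate 2, div12_48_u replicate 1 or div12_48_u replicate 2 (limma adjusted p = 0.0676 to 0.111). Brd2 also lost it with median-ratio scaling and with the length trend removed (limma adjusted p = 0.118 to 0.230).

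The members are encoded by long transcripts, with a median length of 4961 bases, beside 2946 over 4349 genes tested with a length, and 28 of 50 lie in the longest of 4 equal length classes, at 4455 bases or more. Over all genes, change went with length. In div12 against naive the median log2 change of all genes was -0.04 in the shortest class and -0.54 in the longest, and that of the 28 long members was -0.66. In div12_48_u against div12 the medians were -0.03 and 0.30, and 0.55 for the long members. The largest genes of the set, Kmt2d and Kmt2a, had transcripts of 19823 and 16470 bases. In the div12 pair, replicate 1 lay above replicate 2 by a median of 0.25 on the log2 scale over members and 0.08 over all genes. The part of transcript length in the members' changes was not tested apart from the fits with the length trend removed. In those fits 80 of 111 member calls were kept, 29 were lost and 2 changed sign. In div12 against naive, Kmt2d stayed called, while Kmt2a went to -0.07 (limma adjusted p = 0.624), Kmt2b to -0.16 (limma adjusted p = 0.179) and Setd1a to -0.10 (limma adjusted p = 0.367). In div0 against naive, Kmt2d went to -0.06 (limma adjusted p = 0.658). In div12_48_u against div12, Kmt2d, Kmt2a and Kdm5b stayed called.

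**Figure D5:**
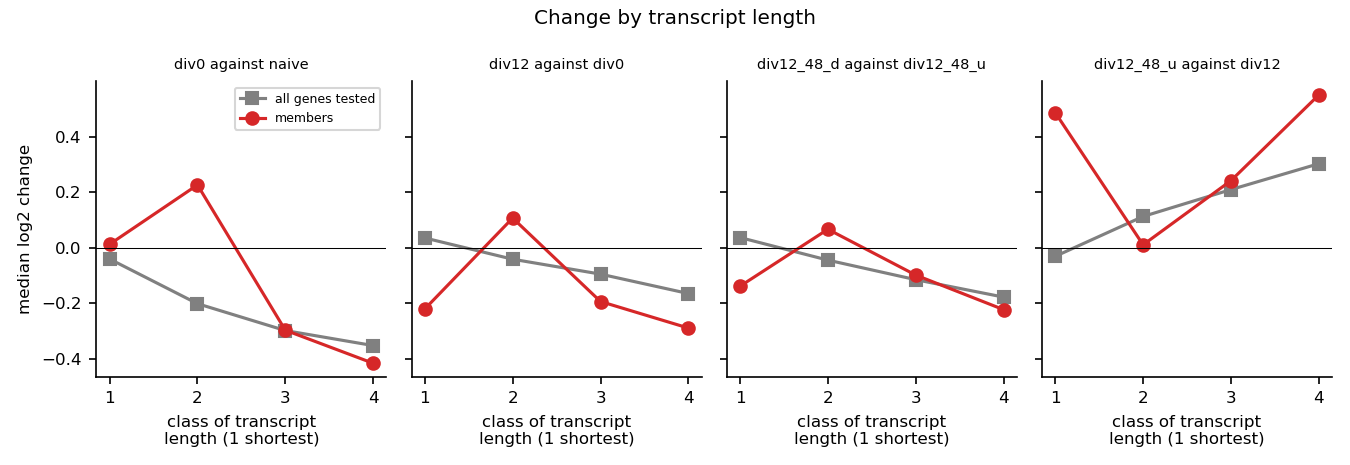
Median log2 change by class of transcript length (1 is the shortest of 4) for all genes tested (squares) and for the members (circles; 6, 8, 8 and 28 members in classes 1 to 4) in 4 comparisons. Both lines are lowest in the longest class in div0 against naive and highest there in div12_48_u against div12, and the members' line, from few genes in the shorter classes, is uneven.

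Other chromatin genes were counted from lists of partners and related enzymes, beside 15.4% of all genes called higher and 39.6% lower in div0 against naive, and 27.7% and 13.6% in div12_48_u against div12. Of 15 polycomb genes, 4 were higher and 3 lower in div0 against naive and 5 and 2 in div12_48_u against div12. Ezh2, which methylates lysine 27 of histone H3, rose from 66.2 ± 4.13 TPM in naive to 207 ± 27.3 TPM in div0, a log2 change of 1.62 ± 0.13 (SE; limma adjusted p = 4.77e-05). Its relative Ezh1 changed by -0.63 ± 0.10 (SE; limma adjusted p = 0.00111). Acetyltransferases oppose the Hdac proteins. Of 7 genes for these enzymes and their subunits, 0 were higher and 5 lower in div0 against naive. In div12_48_u against div12 the counts were 3 and 0. Crebbp and Ep300 changed by -0.91 ± 0.22 (SE; limma adjusted p = 0.00776) and -0.77 ± 0.17 (SE; limma adjusted p = 0.00590) in div0 against naive. Of 13 other histone and arginine methyltransferases, 6 were higher and 0 lower in div0 against naive, among them Nsd2 at 1.11 ± 0.13 (SE; limma adjusted p = 0.000299). Among 6 DNA methylation cofactors and readers, 2 were higher and 2 lower. Uhrf1, the partner that brings Dnmt1 to replicated DNA, changed by 2.86 ± 0.19 (SE; limma adjusted p = 2.35e-05) in div0 against naive and by -1.95 ± 0.19 (SE; limma adjusted p = 0.000275) in div12_48_u against div12. It was higher in div12_48_d than div12_48_u, 1.21 ± 0.19 (SE; limma adjusted p = 0.00411), and these 3 signs are those of Dnmt1. They are not particular to this pair, as all 9 genes of dividing cells were called with the same 3 signs. Of 19 other remodeler subunits 0 were higher and 7 lower in div0 against naive, of 7 deacetylase corepressors 1 and 2, and of 7 histone chaperones 2 and 0, with Ssrp1, a subunit of FACT, at 0.76 ± 0.09 (SE; limma adjusted p = 0.000328).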

How the data were processed

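Ribosome-depleted total RNA (100 ng) was sequenced as 50 bp single-end reads, per the labels. The deposited table holds TPM by transcript, computed by the authors; HISAT2, Salmon, featureCounts, HTSeq, DESeq2 and the build mm10 come from the submitters' processing notes. The sources used here give neither their roles and versions nor the strand setting. Depth is unknown. Of 13128 transcripts with values, 63 without a symbol (0.204% to 0.379% of TPM) were left out and 13065 were summed into 6610 genes. All 50 members matched the reference by symbol. Limma 3.58.1 (R 4.3.3) was fitted to log2(TPM + 1) of 4427 genes that reached 1 TPM in 2 or more libraries, over 10 libraries, with group as the only term, a mean-variance trend, 5 residual degrees of freedom and Benjamini-Hochberg adjustment, and was tested on simulated data. Figures and tables used Python 3.11.15. The alternatives are given at the end. Members given by library are, per comparison, up to 5 called with the largest rise and up to 5 with the largest fall, at 10 TPM or more in the higher group, and each family's most abundant member; up to 3 called genes of a context list are named. The members and lists were chosen with earlier results of these data known. The plots show 49 of the 50 members, and 1 member is not reported here by name, though counts and sums include it.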

Additional observations from a re-analysis of the deposited data

How the results depend on the processing

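Alternatives changed 1 choice at a time. Of 2489 values of called members under them, 2046 kept direction and call, 436 lost the call and 7 changed sign. The signs changed against naive: Tet1 in div0 to 0.204 with quantile normalization; in div12, Kdm1a to 0.118 with median-ratio scaling, 0.00359 with quantile normalization and 0.0748 with the length trend removed, Setd5 to 0.0800 with median-ratio scaling and 0.219 with the length trend removed, and Sirt2 to 0.140 with median-ratio scaling. The cause was not tested. The number of members called was 26 and 36 in div0 and div12 relative to naive, 3 and 11 for divided relative to undivided cells of Phase I and Phase II, and 27 and 8 for div12_48_u and div12_48_d relative to div12. In that order it became 4, 10, 0, 2, 7 and 0 where a fold of at least 2 was asked. In div12 against div0, it was 1 with no filter, with no trend and with the most abundant transcript, and 5 without the naive group. In a fit of the compared groups alone it was 5 in div12_48_d against div12_48_u and 5 in div12_48_d against div12, and with the most abundant transcript 5 in the latter. Leaving out each library in turn gave 11 to 27, 29 to 35, 0 to 5, 0 to 13, 12 to 30 and 1 to 11. The library then left alone in its group was taken to be as variable as those elsewhere. The difference of the division contrasts called 0 members under every alternative.

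The labels do not say whether replicate numbers pair samples across groups. Replicate differences of group pairs correlated at -0.238 (div0 with div12) to 0.199 (div12_48_u with div12_48_d), which does not settle it. With the replicate number as a block, 25, 34, 1, 10, 27 and 6 members were called. The fit without the naive group and the removal of a trend on transcript length were chosen after seeing the data. Sequencing depth, and with it counting error, is unknown.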
